A study of Mus musculus with 8 samples.

Results

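The monocarboxylate transporters of the SLC16 family and the membrane glycoproteins that escort them were followed through a 48 h fast in mouse cortex. The set was defined by name and holds 10 genes of the 24344 symbols in the expression table, 8 transporters (Slc16a1, Slc16a3, Slc16a6, Slc16a7, Slc16a9, Slc16a11, Slc16a13 and Slc16a14) and the chaperones Bsg and Emb, each on a single row. RNA was sequenced from whole homogenates of the occipital cortex of C57BL/6J mice at postnatal day 35. There were 4 libraries of mice fasted for 48 h and 4 libraries of mice fed ad libitum, and the labels name no engineered allele and no drug. Nothing in the labels states that each library is a separate animal, so that p-values measure the spread between these libraries.

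The monocarboxylate transporters MCT1, MCT2 and MCT4 move lactate, pyruvate and the ketone bodies across membranes together with a proton, in whichever direction the gradients favour. Not all members of the family are known to share these substrates. In the brain MCT1, the product of Slc16a1, is known from the endothelium of the blood-brain barrier and from glia, MCT2 (Slc16a7) from neurons and MCT4 (Slc16a3) from astrocytes. These carriers reach the cell surface only with an immunoglobulin-family partner, for MCT1 and MCT4 usually basigin (Bsg) and for MCT2 mainly embigin (Emb). Ketone bodies made by the liver during a fast enter the brain through this family.

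Slc16a1 lies on chromosome 3 at 104638668 to 104658462, and Slc16a7 on chromosome 10 at 125219270 to 125389465 (GENCODE M21, GRCm38, the same assembly as mm10). Promoter sequences from RefSeq (GRCm38.p6) were matched for 6 of the 10 genes. Those of Slc16a1, the transporter that rose, and of Slc16a3 are shown. Slc16a3 is the member known from other tissues as a target of the hypoxia-inducible factor HIF-1. Each window holds the 250 bases before a RefSeq start on the plus strand, at chr3:104638414-104638663 and chr11:120948817-120949066. The Slc16a3 window lies inside the GENCODE gene, which starts at 120948480, and so not upstream of the whole gene. Capitals mark the letters ACGTG or GCGTG on either strand, the core of HIF sites, and matches may share bases.
Slc16a1: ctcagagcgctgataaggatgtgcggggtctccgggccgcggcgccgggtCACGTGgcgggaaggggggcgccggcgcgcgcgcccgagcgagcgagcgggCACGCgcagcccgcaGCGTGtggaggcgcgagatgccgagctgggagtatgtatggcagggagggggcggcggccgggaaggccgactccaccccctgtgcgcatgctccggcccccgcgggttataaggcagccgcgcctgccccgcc
Slc16a3: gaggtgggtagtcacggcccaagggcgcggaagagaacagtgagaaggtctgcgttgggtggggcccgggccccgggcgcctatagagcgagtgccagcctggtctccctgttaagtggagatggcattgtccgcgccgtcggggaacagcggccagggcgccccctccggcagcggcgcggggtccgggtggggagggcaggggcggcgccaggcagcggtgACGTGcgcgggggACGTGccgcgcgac
The Slc16a1 window held 37 CpG dinucleotides and the Slc16a3 window 29, where the median of 32851 such windows was 6. ACGTG was matched 2 times in each window, in Slc16a1 as a palindrome read on both strands, and 16.6% of all windows held it. GCGTG was matched 2 times for Slc16a1 and 0 times for Slc16a3 (28.2% of all windows), and the FoxO core GTAAACA 0 times in both (3.17% of all windows). In the matched windows not shown, GCGTG was matched 4 times for Slc16a11, 1 time for Slc16a9 and 0 times for Slc16a14 and Emb. ACGTG was matched 0 times in these. Both HIF cores hold a CpG, and the shares over all windows were not matched for CpG content. These matches describe letters in a window and not binding.

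Values are in FPKM, a count of fragments scaled to transcript length and library size, so that levels of different genes can be set side by side per length. Depth is not given with FPKM. It was estimated from the smallest steps of the values at 17500000 to 22100000 fragments per library, an uncertain figure. Fasted replicate 2 and ad libitum replicates 2 and 3 stood apart. A single small-RNA row took 6.29% of the FPKM total in fasted replicate 2, 11.2% in ad libitum replicate 2 and 10.6% in ad libitum replicate 3, which bears on any scaling to equal totals. In the other libraries the highest row took 0.522% to 0.948%. Replicates 1 and 3 of both groups held Y-linked transcripts and replicates 2 and 4 held Xist, except ad libitum replicate 3, which had both at intermediate levels (Xist 32.2 FPKM, Ddx3y 5.67 FPKM).

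The comparison of fasted with fed cortex asks which transcripts differ after 48 h without food. The neuronal transporter gene Slc16a7 fell 2.12-fold in fasted cortex, Slc16a1 rose by 18.0%, and Bsg, Slc16a6 and Slc16a13 fell by 14.7%, 17.5% and 21.8% on the linear scale of the group means. Emb, Slc16a3, Slc16a11 and Slc16a14 did not pass the test, and Slc16a9 was too low to enter it. The test was limma on log2(FPKM + 1) over 12377 genes with at least 1 FPKM in 4 or more libraries, and a call needed a Benjamini-Hochberg adjusted p below 0.05. Of the 9 members tested, 1 was called higher and 4 lower, where 9.56% of all tested genes were called higher, 16.3% lower and 25.8% either way. The same 5 members had groups that did not overlap, 1 higher and 4 lower, as 11.1% and 16.5% of all tested genes did (27.6% either way). The median log2 difference of the 9 was -0.11, against -0.02 over all tested genes. The members were chosen with earlier results of these data known, so that these shares are a description and no test of the set. Fold changes on this scale understate those of low genes. In a homogenate, fewer cells of a type and less RNA per cell cannot be told apart.

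**Figure D1:**
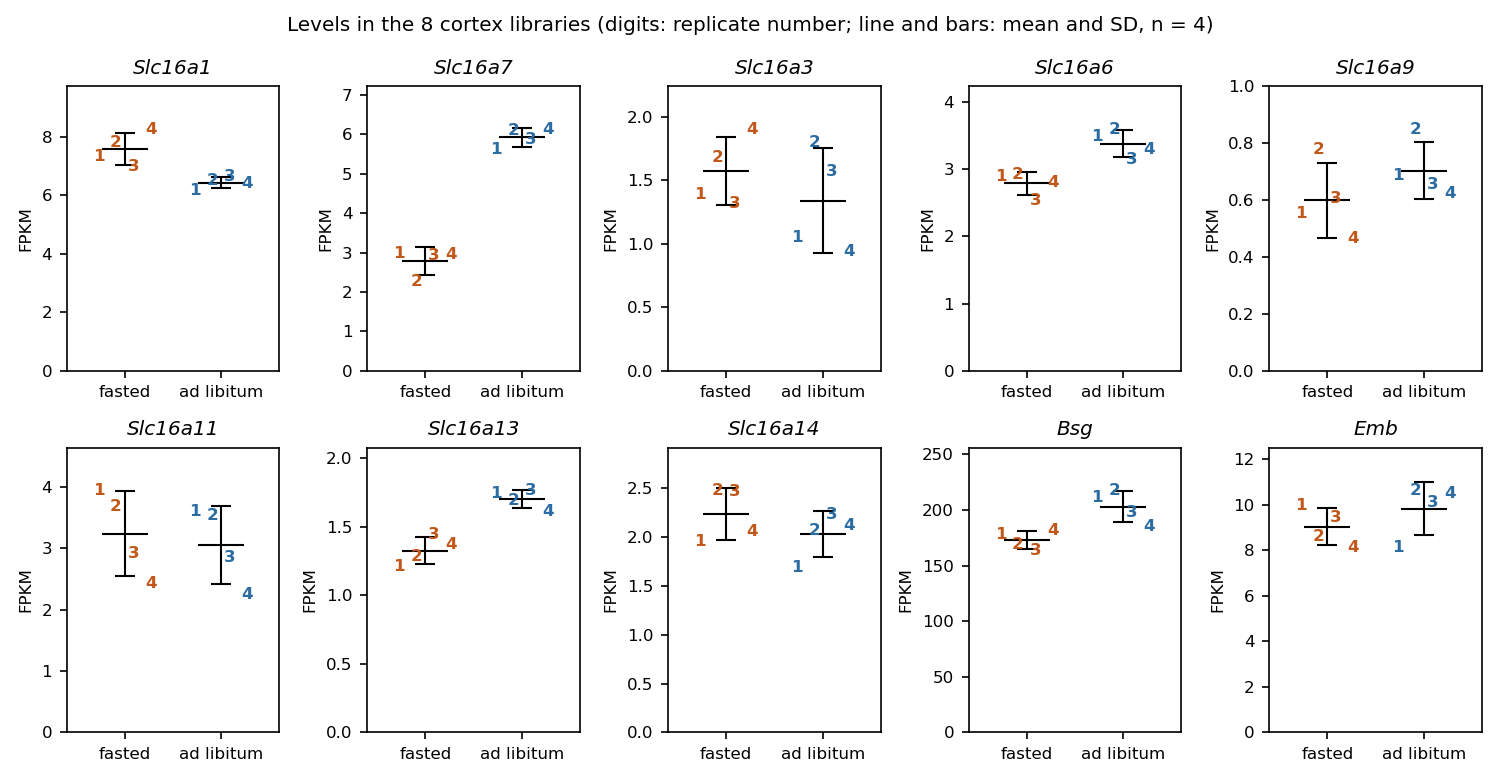
FPKM (vertical axes, each from 0) of the 10 genes in fasted (left, orange) and ad libitum (right, blue) libraries. Digits are replicate numbers, the horizontal line is the mean and the bars are 1 SD (n = 4). The groups do not overlap for Slc16a1, Slc16a7, Slc16a6, Slc16a13 and Bsg, and Slc16a7 shows the widest gap of these.

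Slc16a7, which encodes the high-affinity carrier MCT2, had 2.98, 2.27, 2.93 and 2.96 FPKM in fasted libraries 1 to 4, against 5.61, 6.09, 5.86 and 6.12 FPKM in ad libitum libraries 1 to 4. Every fasted library lay below every ad libitum library, and fasted replicate 2 was the lowest of all. The means were 2.79 FPKM ± 0.343 in fasted and 5.92 ± 0.238 in ad libitum cortex (SD, n = 4 each). The log2 difference was -0.87 (SE 0.0736, limma adjusted p = 4.41e-05). Of all 12377 tested genes, 0.097% had a log2 difference as low. The call was kept in all 20 alternative settings, with log2 differences from -1.07 to -0.77. Between libraries of the same replicate number the difference was -0.73, -1.11, -0.80 and -0.85 on the log2 scale. Markers of neurons are given beside it, where 9.56% of all tested genes were called higher and 16.3% lower. Of 10 excitatory markers 1 was called higher and 4 lower, with a summed level of 1163 to 1332 FPKM in fasted and 1098 to 1283 FPKM in ad libitum libraries, and the largest of these differences was that of Rorb at -0.39. Of 8 inhibitory markers limma called 0, with 1 at an unadjusted p under 0.05, Gad1 at 0.14 on the log2 scale (adjusted p = 0.112, range over alternatives 0.00907 to 0.252). The summed inhibitory level was 359.3 to 452.4 FPKM in fasted and 348.5 to 480.4 FPKM in ad libitum libraries. The part of cell composition in the fall of Slc16a7 was not tested. Its exons share 179 bases with Gm47862 on the opposite strand, which was not analysed here.

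Slc16a1, which encodes MCT1, had 7.32, 7.80, 6.99 and 8.25 FPKM in fasted libraries 1 to 4, against 6.18, 6.52, 6.64 and 6.39 FPKM in ad libitum libraries 1 to 4. The groups did not overlap, with the nearest values in replicate 3 of both. Its means were 7.59 FPKM ± 0.550 in fasted and 6.43 ± 0.197 in ad libitum cortex (SD, n = 4 each), and the fasted libraries were the more variable (coefficient of variation 7.25% in fasted and 3.06% in ad libitum libraries). The log2 difference was 0.21 with SE 0.0591 and limma adjusted p = 0.0248. The adjusted p was 0.0597 without fasted replicate 2, 0.0678 without fasted replicate 4, 0.0648 with ad libitum replicate 1 left out and 0.0501 with ad libitum replicate 2 left out, in a range over all alternatives of 0.0186 to 0.0678. Relative to the median of all genes the rise was 0.22 to 0.23 under each of the scalings tried. Of 10 endothelial markers 1 was called higher, Mfsd2a at 0.88 on the log2 scale, and 2 lower, Itm2a at -0.53 and Slco1c1 at -0.37. The median log2 difference of the 10 was -0.115. The summed level of the 10 was 84.7 to 102 FPKM in fasted and 95.2 to 112.9 FPKM in ad libitum libraries. In this sum the rise of Mfsd2a offsets falls of other markers, so that its overlap does not show level endothelial markers. The part of cell composition in the rise of Slc16a1 was not tested.

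Slc16a3 encodes MCT4, the carrier known for lactate export from glycolytic cells. It had 1.39, 1.68, 1.32 and 1.90 FPKM in fasted libraries 1 to 4, against 1.05, 1.80, 1.57 and 0.943 FPKM in ad libitum libraries 1 to 4. The groups overlapped and the ad libitum libraries spread widely, with a coefficient of variation of 30.6%. The log2 difference was 0.15, with a 95% interval of -0.12 to 0.41 (limma adjusted p = 0.404), so that a rise as large as that of Slc16a1 lay within its error. It rested on single libraries, and was 0.06 without ad libitum replicate 4, 0.09 without ad libitum replicate 1 or fasted replicate 4 and 0.24 without ad libitum replicate 2, where the adjusted p was 0.171 (range over alternatives 0.108 to 0.713).

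**Figure D2:**
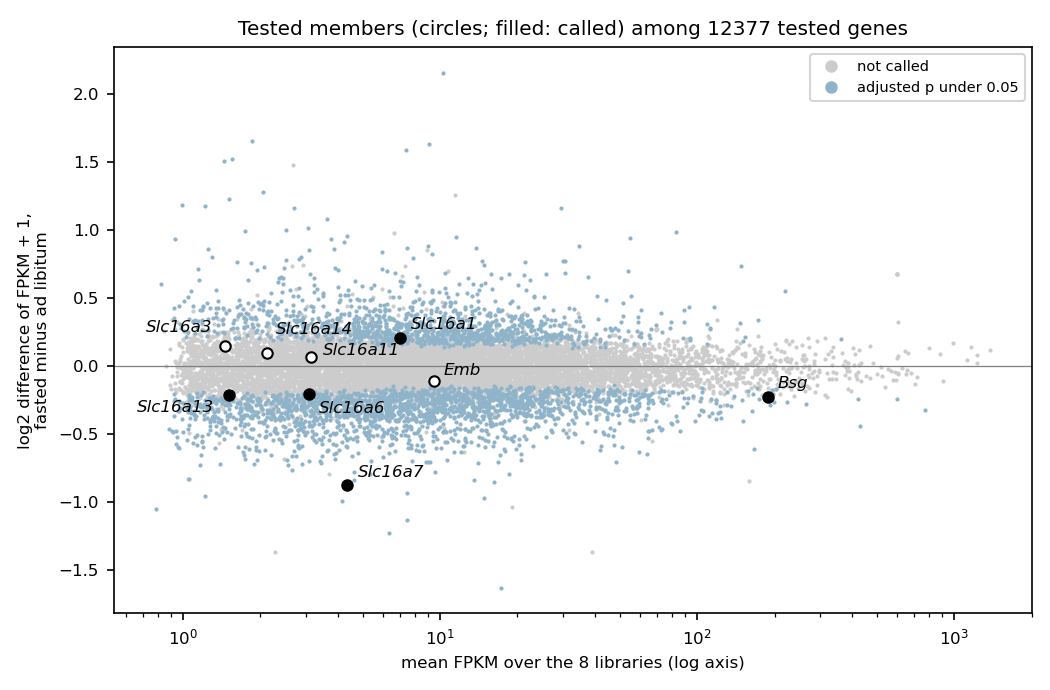
Log2 difference of FPKM + 1, fasted minus ad libitum (vertical axis), against mean FPKM over the 8 libraries (horizontal log axis) for 12377 tested genes. Circles are the 9 tested members, filled where the limma adjusted p was under 0.05. Slc16a7 lies at the lower edge of the cloud at -0.87, while the other members lie between -0.23 and 0.21.

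The transcripts of Slc16a7 and Slc16a1 moved in opposite directions in the whole homogenate. The call of Slc16a1 was lost when some single libraries were left out. The ratio of Slc16a1 to Slc16a7 was 2.45, 3.43, 2.39 and 2.78 in fasted libraries 1 to 4, against 1.10, 1.07, 1.13 and 1.04 in ad libitum libraries 1 to 4. A ratio of 2 genes within a library does not change when each library is scaled by 1 factor, though quantile scaling can change it. It is given as a description without a test, since it joins 2 differences already tested. In ad libitum cortex the order by FPKM was Bsg, Emb, Slc16a1, Slc16a7, Slc16a6, Slc16a11, Slc16a14, Slc16a13, Slc16a3 and Slc16a9. Neighbours in that order overlapped for Slc16a6 with Slc16a11, Slc16a14 with Slc16a13, and Slc16a13 with Slc16a3. In fasted cortex Slc16a7 ranked between Slc16a11 and Slc16a6 and overlapped with both, and Emb overlapped with Slc16a1. Slc16a7 made up 12.6% ± 1.79 of the summed FPKM of the 8 transporters in fasted and 24.1% ± 1.40 in ad libitum cortex, and Slc16a1 34.3% ± 1.96 in fasted and 26.2% ± 1.14 in ad libitum cortex (SD, n = 4 each). The sum itself was 21.2 to 22.9 FPKM in fasted and 23.3 to 26.1 FPKM in ad libitum libraries.

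**Figure D3:**
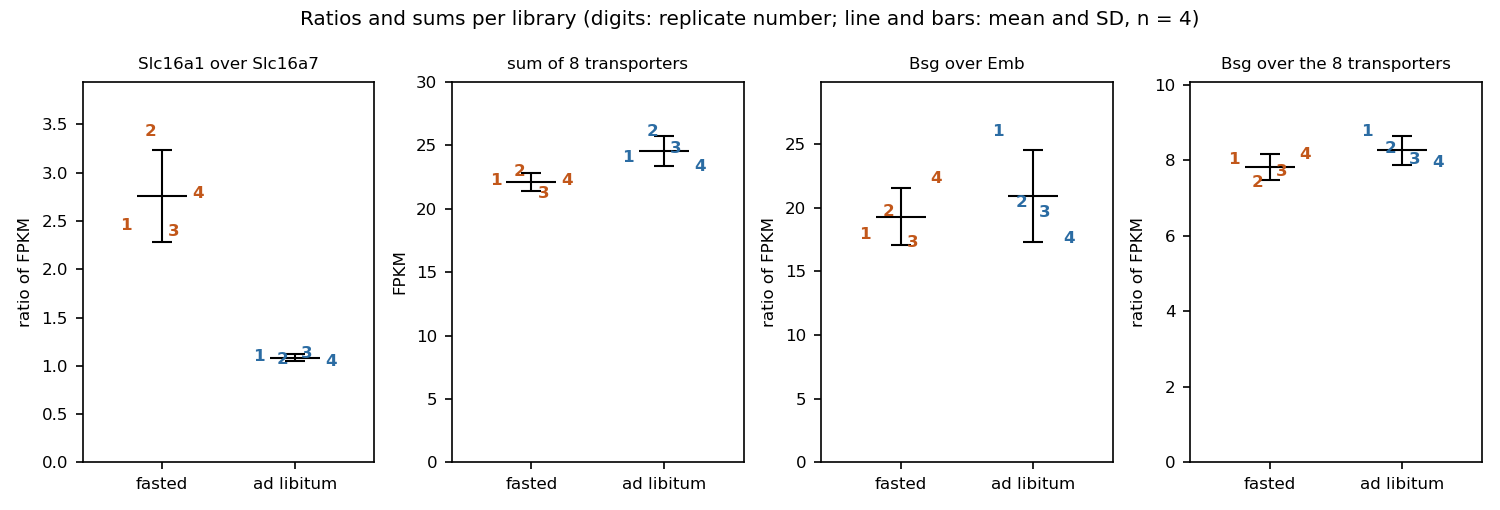
Ratios and sums of FPKM per library, fasted on the left (orange) and ad libitum on the right (blue), with digits for replicate numbers, a line for the mean and bars for 1 SD (n = 4); all vertical axes start at 0. Slc16a1 over Slc16a7 was 2.39 to 3.43 in fasted and 1.04 to 1.13 in ad libitum libraries, while Bsg over Emb and Bsg over the sum of the 8 transporters overlapped between the groups.

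Bsg, which encodes basigin (CD147), was by far the most abundant of the 10 genes. It had 178.3, 169.4, 163.4 and 181.3 FPKM in fasted libraries 1 to 4, against 211.0, 217.1, 198.1 and 185.4 FPKM in ad libitum libraries 1 to 4. The highest fasted and the lowest ad libitum library, both replicate 4, lay close together without overlap. The means were 173.1 FPKM ± 8.19 in fasted and 202.9 ± 14.1 in ad libitum cortex (SD, n = 4 each), with a log2 difference of -0.23, SE 0.0650 and limma adjusted p = 0.0254. The adjusted p was 0.0677 without fasted replicate 2, 0.0792 without fasted replicate 3, and 0.0668, 0.0760 and 0.0566 when ad libitum replicates 1, 2 and 3 were left out in turn. With all FPKM totals made equal the difference was -0.10 with adjusted p = 0.525, the highest of a range over all alternatives that began at 0.00493. Bsg over the summed transporters was 7.83 ± 0.335 in fasted and 8.26 ± 0.375 in ad libitum libraries (SD, n = 4 each) and overlapped between the groups.

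Emb, which encodes embigin, had 9.94, 8.60, 9.44 and 8.13 FPKM in fasted libraries 1 to 4, against 8.11, 10.6, 10.1 and 10.5 FPKM in ad libitum libraries 1 to 4. The ad libitum library of replicate 1 was lower than all fasted libraries, and the other ad libitum libraries were higher. The log2 difference of -0.11 did not pass the test, with a 95% interval of -0.30 to 0.08 (limma adjusted p = 0.375). Without ad libitum replicate 1 the difference was -0.19 (limma adjusted p = 0.0795, range over alternatives 0.0795 to 0.986), and without fasted replicate 4 it was -0.07. The log2 difference of its usual client Slc16a7, -0.87, lay outside this interval. The exons of Emb share 686 bases with Gm17509 on the opposite strand, which was not analysed here. The ratio of Bsg to Emb was 17.3 to 22.3 in fasted and 17.6 to 26.0 in ad libitum libraries.

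Slc16a6 encodes MCT7, known in zebrafish liver for the export of the ketone body beta-hydroxybutyrate. It had 2.89, 2.92, 2.54 and 2.80 FPKM in fasted libraries 1 to 4, against 3.49, 3.59, 3.14 and 3.29 FPKM in ad libitum libraries 1 to 4. The groups did not overlap, and the fasted library was lower at each replicate number. The log2 difference was -0.21 with SE 0.0633 and limma adjusted p = 0.0315. Without fasted replicates 3 or 4 the adjusted p was 0.0906 and 0.0602, without ad libitum replicates 1 or 2 it was 0.0771 and 0.0884, with quantile scaling 0.0593 and with equal FPKM totals 0.489, in a range that began at 0.0219. The exons of Slc16a6 share 1052 bases with those of Amz2 and 48 with those of Arsg, both on the opposite strand. Whether the libraries keep strand is not given in the sources used here, so that reads of these genes cannot be told apart over the shared bases. Amz2, a metallopeptidase gene named for this overlap after its values were seen, had 9.78 FPKM ± 0.347 in fasted and 13.3 ± 0.861 in ad libitum cortex (SD, n = 4 each), a log2 difference of -0.41 (limma adjusted p = 7.3e-04). Its part in the difference of Slc16a6 was not tested.

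Slc16a13 encodes MCT13, known as a lactate transporter of liver cells. It had 1.21, 1.28, 1.44 and 1.37 FPKM in fasted libraries 1 to 4, against 1.74, 1.69, 1.76 and 1.61 FPKM in ad libitum libraries 1 to 4. All fasted libraries lay below all ad libitum libraries. The log2 difference was -0.21 with SE 0.0625 and limma adjusted p = 0.0273, on an estimated 57 to 86 fragments per library. The adjusted p was 0.0718 and 0.0568 without fasted replicates 1 and 2, 0.0648, 0.0587 and 0.0750 without ad libitum replicates 1, 2 and 3, 0.0639 with quantile scaling and 0.364 with equal FPKM totals, in a range that began at 0.0138. Its neighbour Slc16a11, which encodes MCT11, known from human studies of lipid metabolism and type-2 diabetes risk, lies tail to tail with it on chromosome 11 (Slc16a11 from 70212752 to 70216417, Slc16a13 from 70216789 to 70221064) without shared bases. Slc16a11 had 3.93, 3.67, 2.92 and 2.43 FPKM in fasted libraries 1 to 4, against 3.60, 3.53, 2.84 and 2.25 FPKM in ad libitum libraries 1 to 4. The groups overlapped, and in both of them replicates 1 and 2 were higher than replicates 3 and 4. The log2 difference was 0.06 with a 95% interval of -0.23 to 0.36 (limma adjusted p = 0.758). At the same replicate number the fasted library was higher 4 of 4 times, by 0.03 to 0.10 on the log2 scale, and a block for replicate number gave adjusted p = 0.438 (range over alternatives 0.308 to 0.965).

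Slc16a14 encodes MCT14, a family member whose substrate is not settled. It had 1.95 to 2.47 FPKM in fasted and 1.69 to 2.23 FPKM in ad libitum libraries, a log2 difference of 0.10 with a 95% interval of -0.08 to 0.28 (limma adjusted p = 0.415), and of 0.04 without ad libitum replicate 1. Slc16a9, which encodes MCT9 and is linked to carnitine in human genetic studies, stayed below 1 FPKM in every library and was not part of the fit. It had 0.552, 0.776, 0.604 and 0.465 FPKM in fasted libraries 1 to 4, against 0.688, 0.848, 0.656 and 0.623 FPKM in ad libitum libraries 1 to 4, on an estimated 36 to 61 fragments. The groups overlapped, and the log2 difference was -0.09 (exact two-sided permutation test over 70 assignments, p = 0.257). The smallest p this design allows is 0.0286. At the same replicate number Slc16a9 was lower in the fasted library 4 of 4 times, with log2 differences of -0.15 to -0.05. An exact sign-flip permutation test with these as pairs gave p = 0.125, the smallest that 4 pairs allow. The labels do not state such pairing.

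**Figure D4:**
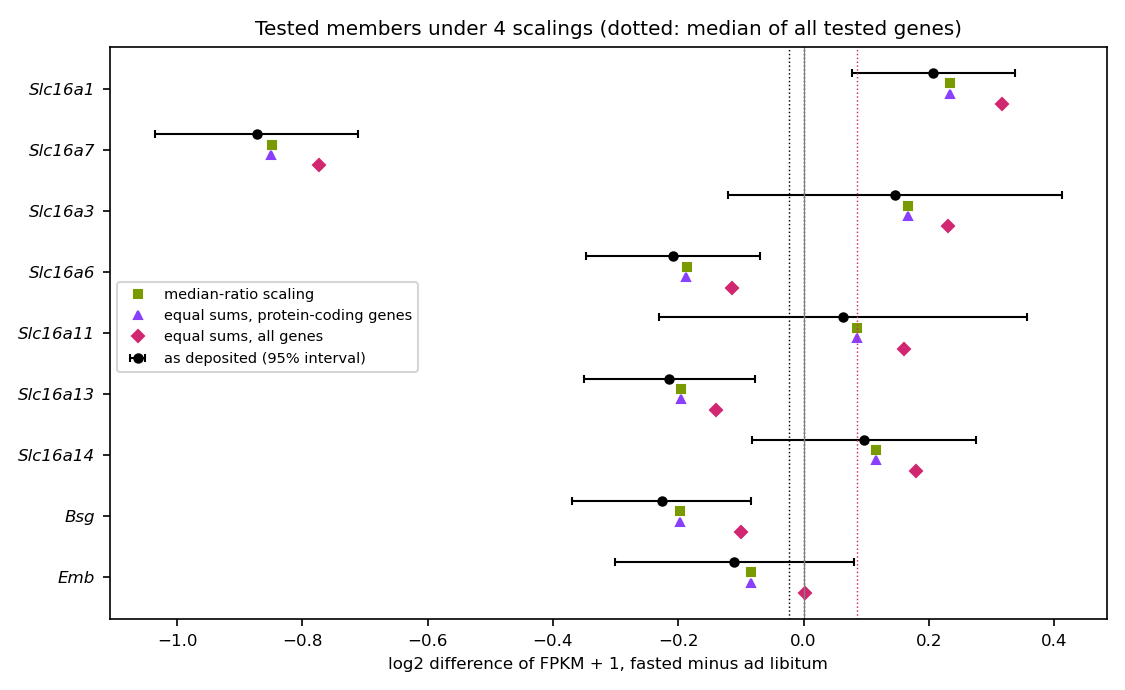
Log2 difference of FPKM + 1, fasted minus ad libitum, of the 9 tested members with values as deposited (black, bars for the 95% interval) and after median-ratio scaling, equal sums over protein-coding genes and equal sums over all genes. Dotted lines mark the median of all tested genes, which equal sums over all genes move from -0.02 to 0.08; Slc16a1 stays above 0 and Slc16a7 far below 0 under all of these.

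The number of called members changed when single libraries were left out. It was 5 with all libraries, 1 without ad libitum replicate 1 or 2, 2 without fasted replicate 2, 3 without fasted replicate 3, fasted replicate 4 or ad libitum replicate 3, 4 without fasted replicate 1 and 5 without ad libitum replicate 4. Slc16a7 was called each time. The share of all tested genes called moved as well. It was 25.8% with all libraries and 20.4% and 19.2% without ad libitum replicates 1 and 2. Over all fits without 1 library it ran from 17.9% to 30.2%. With ad libitum replicate 3 left out, the library with mixed sex-linked transcripts, Slc16a1, Slc16a6 and Slc16a7 were called. Equal totals over all genes shifted the median of all genes from -0.02 to 0.08 and turned the split of called genes from 1183 higher and 2015 lower to 1585 higher and 534 lower. It stood at 1753 higher and 1936 lower with median-ratio scaling and at 1792 and 1909 with quantile scaling. Relative to the median of all genes under each scaling, Bsg lay between -0.20 and -0.19, Slc16a6 between -0.20 and -0.17, Slc16a13 between -0.22 and -0.18 and Slc16a7 between -0.86 and -0.85.

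Among the other carriers of the family and the sodium-coupled monocarboxylate transporters, 2 of 8 genes were abundant enough to test and 1 was called, lower. For this and the lists that follow, 9.56% of all tested genes were called higher and 16.3% lower. Slc16a4, a family member without a settled substrate, had 0.735 FPKM ± 0.146 in fasted and 1.5 ± 0.192 in ad libitum cortex (SD, n = 4 each), a log2 difference of -0.52 (limma adjusted p = 0.00138). It passed the filter only through the ad libitum libraries, and without any one of these it was not tested. Another 6 genes, among them the retinal carrier gene Slc16a8 and the sodium-coupled Slc5a8 and Slc5a12, did not reach the filter, and these 3 were below 1 FPKM in all libraries.

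The relatives and partners of basigin gave 0 calls among 4 tested genes of 6. Nptn, which encodes neuroplastin, a close relative of basigin and embigin, had 216.1 FPKM ± 7.91 in fasted and 232.8 ± 14.6 in ad libitum cortex (SD, n = 4 each), a log2 difference of -0.11 with a 95% interval of -0.24 to 0.03 (limma adjusted p = 0.233) that was 0.02 with equal totals. The nearest to a call was the membrane protease gene Mmp14, with a log2 difference of -0.26 and adjusted p = 0.0699. It was the 1 of the 4 with an unadjusted p under 0.05. Its adjusted p was 0.0127 when replicate number was a block, 0.0304 without ad libitum replicate 4 and 0.0493 with equal sums over protein-coding genes, in a range of 0.0127 to 0.274. The ratio of Bsg to Nptn was 0.765 to 0.838 in fasted and 0.851 to 0.908 in ad libitum libraries.

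Of the genes that make or use lactate and pyruvate, 0 of 7 tested (8 listed) were called higher and 2 lower, with a median log2 difference of 0.02. Ldha, the lactate dehydrogenase subunit that favours lactate formation, had 108.0 FPKM ± 3.80 in fasted and 129.0 ± 9.62 in ad libitum cortex (SD, n = 4 each), a log2 difference of -0.25 (limma adjusted p = 0.0133, and 0.407 with equal totals, in a range that began at 0.00166). Ldhb, the subunit that favours lactate use, was at 0.10 with a 95% interval of -0.07 to 0.26 (limma adjusted p = 0.376). The ratio of Ldha to Ldhb was 0.267 to 0.307 in fasted and 0.337 to 0.388 in ad libitum libraries, without overlap. Mpc2, a subunit of the mitochondrial pyruvate carrier, had a log2 difference of -0.27 (limma adjusted p = 0.0248). Its adjusted p was 0.0502, 0.0663 and 0.0617 without fasted replicates 1, 2 and 4, 0.0633 and 0.0700 without ad libitum replicates 1 and 2 and 0.356 with equal totals, in a range that began at 0.00536. Its partner Mpc1 was at -0.03 (limma adjusted p = 0.784). Ldhd, a lactate dehydrogenase of the D form, named after its values were seen, had 2.71 to 2.88 FPKM in fasted and 2.06 to 2.70 FPKM in ad libitum libraries, without overlap. Its log2 difference was 0.19 with limma adjusted p = 0.0842, and the adjusted p was 0.0419 with median-ratio scaling, 0.0274 with quantile scaling and 0.0468 without ad libitum replicate 2, in a range of 0.0274 to 0.203.

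**Figure D5:**
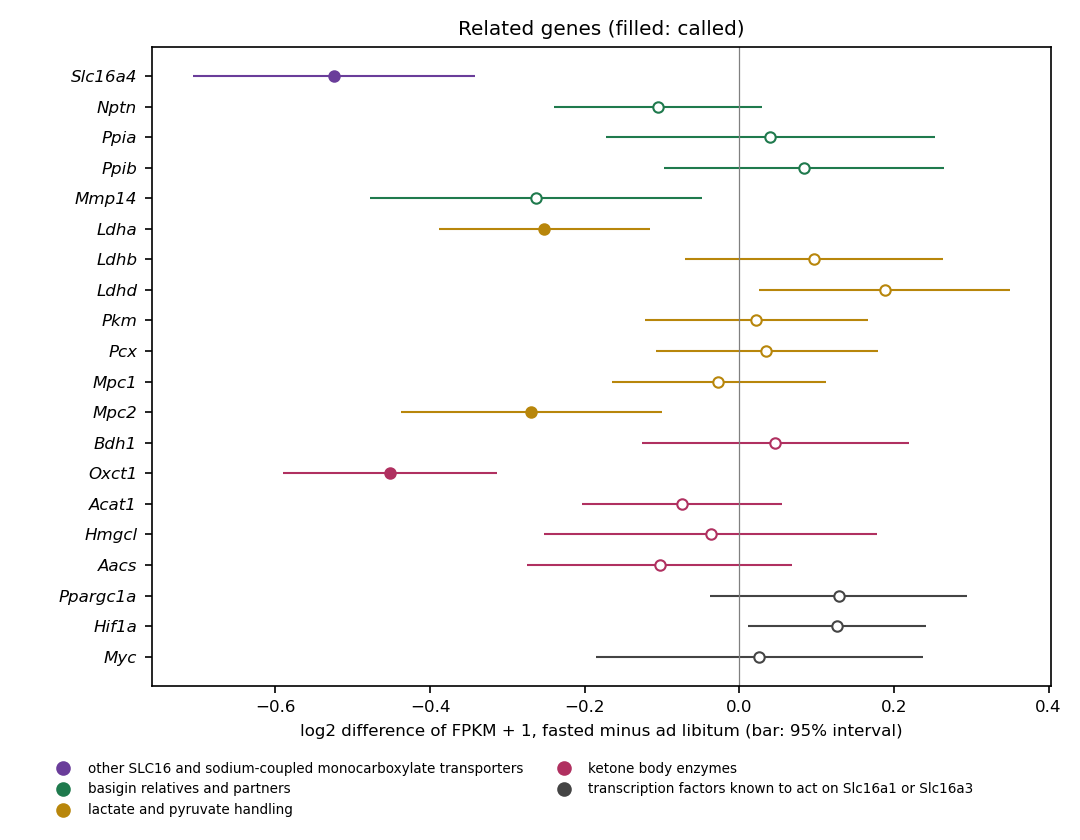
Log2 difference of FPKM + 1, fasted minus ad libitum (horizontal axis), of related genes, coloured by list, with bars for the 95% interval and filled circles for a limma adjusted p under 0.05. The filled circles, Slc16a4, Oxct1, Mpc2 and Ldha, lie between -0.52 and -0.25.

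Among the enzymes of ketone body use, Oxct1 had 65.3, 57.4, 62.9 and 55.2 FPKM in fasted libraries 1 to 4. It had 81.9, 87.3, 80.2 and 80.8 FPKM in ad libitum libraries 1 to 4. The groups did not overlap, and its log2 difference of -0.45 (limma adjusted p = 7.22e-04) was called in 20 of 20 alternatives. Bdh1, which interconverts the ketone bodies, was at 0.05 with a 95% interval of -0.13 to 0.22 (limma adjusted p = 0.696). Of 3 tested transcription factors known from other tissues to act on Slc16a1 or Slc16a3, 0 were called by limma, and the nearest was Hif1a, with 18.0 FPKM ± 0.447 in fasted and 16.4 ± 0.916 in ad libitum cortex (SD, n = 4 each). Its log2 difference was 0.13, with adjusted p = 0.0999 and a range of 0.0465 to 0.248, the lowest without ad libitum replicate 4, and an unadjusted p under 0.05 was reached by 1 of the 3.

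Markers of the cells that could carry these genes moved unevenly. The counts stand against 9.56% of all tested genes called higher and 16.3% called lower. Of 10 astrocyte markers 2 were called higher and 3 lower (summed level 807.2 to 887.9 FPKM in fasted and 813.6 to 879.5 FPKM in ad libitum libraries), and of 10 oligodendrocyte markers 1 higher and 2 lower (1656 to 1971 FPKM in fasted and 1542 to 1923 FPKM in ad libitum libraries). Of 6 precursor markers 3 were lower (31.5 to 36.8 FPKM in fasted and 37.4 to 41.3 FPKM in ad libitum libraries), of 7 tested mural markers 2 (36.3 to 41.9 FPKM in fasted and 48.2 to 57.7 FPKM in ad libitum libraries), and of 10 microglia markers 5 (116.5 to 134.5 FPKM in fasted and 130.7 to 183.0 FPKM in ad libitum libraries). Of 6 tested fibroblast and meningeal markers 1 was lower (27.5 to 47.8 FPKM in fasted and 43.2 to 56.7 FPKM in ad libitum libraries) and of 3 tested red blood cell markers 0, with 126.0 to 268.8 FPKM in fasted and 144.2 to 252.7 FPKM in ad libitum libraries. Of the 8 choroid plexus markers 0 reached the filter, with 2.55 to 4.88 FPKM in fasted and 1.999 to 2.534 FPKM in ad libitum libraries. The lists that differed without overlap in their sums were the mural, precursor and choroid plexus lists. The choroid plexus ranges nearly touched, on genes below the filter. A sum mostly follows the most abundant genes of its list, such as Mbp for oligodendrocytes and Slc1a2 for astrocytes. Differences of less abundant markers weigh little in it, such as Aqp4 at -0.79 and Gjb6 at 0.765 among astrocyte markers and Fcrls at -1.23 among microglia markers. The part of any of these lists in the differences of the transporters was not tested. The cortical neuron markers Rorb and Neurod2 were present in all libraries.

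The genes whose levels followed those of the main members most closely were ranked by Pearson's r over the 8 libraries, and r after the group means were taken out is given beside it. Closest to Slc16a7 were Trim37 (r = 0.997, within groups 0.920), Hsph1 (r = 0.996, within groups 0.913) and a row whose symbol had been turned into a date (r = 0.994, within groups 0.844). Closest to Slc16a1 were Anks1 (r = 0.980, within groups 0.932), Zfp598 (r = 0.980, within groups 0.947) and Fam129b (r = 0.965, within groups 0.952), and closest to Bsg were Atp6v0a2 (r = 0.996, within groups 0.986), C87436 (r = 0.990, within groups 0.984) and Akap1 (r = 0.987, within groups 0.957). For Emb they were 1810041L15Rik (r = 0.967, within groups 0.968), Tmem255b (r = 0.962, within groups 0.956) and Rerg (r = 0.945, within groups 0.944). These genes are the highest of 12377 over only 8 libraries, and the values are given as a description.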

How the data were processed

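RNA-seq values of 8 libraries, 4 from mice fasted for 48 h and 4 from mice fed ad libitum, were analysed. FPKM values were deposited by the authors as 1 table with 24883 rows. Per the submitters' processing notes TopHat and mm10 were used, while quantifier, annotation and strandedness were not given in the sources used here. Of 282 symbols on several rows the row with the highest mean was kept. Limma 3.58.1 (R 4.3.3) was fitted to log2(FPKM + 1) of 12377 genes with at least 1 FPKM in 4 libraries, with group as the only term, a trend and robust moderation, and p-values were adjusted by Benjamini-Hochberg over all tested genes. The fit was tested on simulated data with independent noise for each gene. It recovered 16.5% of 1.2-fold, 88.5% of 1.5-fold and 99.5% of 2-fold changes. Far fewer genes were changed there than were called in the data, which makes the adjustment of p stricter. The folds were set on FPKM + 1, so that they are larger in FPKM for low genes. These shares are thus not the recovery rates of the fit to the data. A member without a call may still have differed by 1.2-fold.

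Replicate numbers are shared by the groups. Same-numbered libraries deviated together (r = 0.574, 0.496, 0.382 and 0.523 across tested genes, all above the bound of 0.1). Unlike numbers of the same parity also passed this bound. These were fasted 3 with ad libitum 1 (0.381), 4 with 2 (0.289), 1 with 3 (0.185) and 2 with 4 (0.165). Odd with even numbers gave -0.546 to -0.256, and the sex-linked transcripts follow the same split except in ad libitum replicate 3. Pairing by number is thus only possible and is not stated in the labels. A fit with the replicate number as a block was an alternative. The others were pseudocounts of 0.1 and 0.5, other filters, scaling by median ratio, equal sums or quantiles, a term for odd and even numbers, limma without trend, summed repeated rows and leaving out each library. Equal sums over protein-coding genes were added after seeing the data. Named were all members, up to 3 called genes of each related list with the smallest p (or the nearest to a call where none was called), Nptn, Ldha, Ldhb, Oxct1 and Bdh1, and the 3 genes with the highest correlation to each of Slc16a1, Slc16a7, Bsg and Emb. Some genes of the lists are not reported here. The members and lists were chosen with earlier results of these data known. Tables were prepared in Python 3.11.15 with pandas 2.3.3.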

Additional observations from a re-analysis of the deposited data

Results flagged for a closer look

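Slc16a7 had 2.27 FPKM in fasted replicate 2, far from the other fasted libraries at 2.93 to 2.98 FPKM. The difference from ad libitum cortex without that library was -0.81 on the log2 scale (limma adjusted p = 1.4e-04, range over alternatives 3e-10 to 3.71e-04).

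Among red blood cell markers, Alas2, the enzyme that starts heme synthesis in erythroid cells, had 2.29 FPKM in ad libitum replicate 1, against 1.17 to 1.32 FPKM in the other ad libitum libraries. Chance alone sets about 1 group in 20 apart by this measure, and 86 groups were examined.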

How the results depend on the processing

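Over 20 alternatives the members gave 196 values, of which 170 kept direction and call, 23 lost the call and 3 changed sign without being called. With equal FPKM totals 2119 genes were called and 2 members, and the log2 differences were -0.10 for Bsg, -0.12 for Slc16a6, -0.14 for Slc16a13 and 0.003 for Emb. The lactate and pyruvate list then had 0 calls, Nptn was at 0.021 and 1810041L15Rik at 0.042. With quantile scaling 3 members were called, with Slc16a6 at -0.17 and Slc16a13 at -0.17. Equal totals moved the median of all genes to 0.08; the cause of the quantile changes was not tested.

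Leaving out 1 library at a time gave 2195 to 3722 called genes and 1 to 5 called members, and log2 differences of 0.17 to 0.24 for Slc16a1, -0.90 to -0.81 for Slc16a7, -0.24 to -0.18 for Slc16a6, -0.24 to -0.19 for Slc16a13, -0.27 to -0.19 for Bsg, 0.06 to 0.24 for Slc16a3, 0.04 to 0.14 for Slc16a14, -0.19 to -0.07 for Emb, -0.15 to -0.05 for Slc16a9 and -0.04 to 0.16 for Slc16a11. Slc16a11 was -0.015 without fasted replicate 1 and -0.039 without ad libitum replicate 4. Calls in the lists of other transporters, basigin partners and transcription factors ran from 0 to 1, and in that of lactate and pyruvate from 1 to 2.

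With the replicate number as a block 4506 genes were called (3198 without), no member's call changed, 2 genes of the list of other transporters were called and 1 basigin partner, as with equal sums over protein-coding genes (1 basigin partner). Depth limits Slc16a9 and Slc16a13 most, with an estimated 36 to 86 fragments per library.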
